A study of Mus musculus with 2 samples.

Results

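The matrix metalloproteinases (MMPs), the ADAMTS enzymes and the tissue inhibitors of metalloproteinases (TIMPs) were described in bone resident cells of mice given vehicle (Veh) or doxorubicin (Doxo). Genes were taken by symbol alone, as every MMP, ADAMTS or TIMP gene in both tables. This gave 41 of 21905 genes: 18 MMPs, 19 ADAMTS enzymes and 4 TIMPs. Femurs and tibias of 12-week-old female mice were collected at 96 hours, with doxorubicin, a DNA-damaging chemotherapy drug, given at 10 mg/kg to the Doxo group. Bones were cut and digested with collagenase, CD45+ cells were removed with magnetic beads, and cells positive for CD45, CD71, Ter119 or, by the labels, CD31 were removed by sorting. The strain, and the number of mice behind a library, were not given for these samples. The question addressed was which cells hold the transcripts of these enzymes and inhibitors, how they balance, and how the Doxo library differs from the Veh library.

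MMPs and ADAMTS enzymes are zinc proteases that cut the extracellular matrix. In bone, collagenases and gelatinases take part in removing collagen, membrane-type MMPs activate other MMPs at the cell surface, and ADAMTS enzymes cut proteoglycans such as aggrecan or trim procollagens before fibrils form. TIMPs bind the active site of these enzymes and block them. Most of the enzymes are made as inactive proforms, so a transcript count is not a measure of activity.

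Each condition has 1 library, so no test between conditions can be made and no p-value is given. Each library held 2488 cells, with a median of 8693 unique molecular identifiers (UMIs, a count of captured transcript ends) per cell in Veh and 7347.5 in Doxo, and 4 barcodes occurred in both. Levels are counts per 1000000 (CPM), the summed UMIs of a gene over all UMIs of a cell class, with exact 95% Poisson intervals. Ratios of Doxo to Veh are given as log2 values with exact conditional binomial intervals. All intervals cover counting error only, not differences between mice or preparations. UMIs are counted at the 3′ end of a transcript and do not scale with its length.

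Cells were placed in 7 classes by marker genes. CXCL12-abundant reticular (CAR)-like cells, marrow stromal cells that express Cxcl12 and Lepr, were 367 in Veh and 428 in Doxo. Bone and cartilage fibroblast-like cells were 1095 and 1342, arteriolar and endosteal fibroblast-like cells 424 and 263, chondrocyte-like cells 247 and 206, and osteoblast-like cells 208 and 125. Synovial lining-like cells were 44 and 55, and endothelial-like cells 103 and 69, although CD31 was used for depletion. All 8 listed markers marked the CAR-like and the chondrocyte-like clusters, and 5 of 8 marked the bone and cartilage fibroblast-like cluster. Osteoblast-like cells were shallow, with a median of 3077.5 UMIs in Veh and 2930 in Doxo. Chondrocyte-like cells were deep, with 19476 and 14678.5.

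Transcripts of other cell types differed between the libraries. Summed over the 6 classes without endothelial cells, called bone cells here, 4 hemoglobin genes made 403 CPM in Veh and 2.69 CPM in Doxo, and 8 neutrophil genes made 849.6 and 159 CPM. The 4 megakaryocyte genes made 105 and 31.3 CPM. In arteriolar and endosteal fibroblast-like cells they made 504 CPM in Veh and 208 in Doxo. With 20 principal components, 15 cells formed a separate megakaryocyte-like cluster. The gene list for the response to tissue dissociation (Fos, Jun, Egr1 and others) was higher in Doxo for 15 of 15 genes in chondrocyte-like cells and lower for 14 of 15 in CAR-like cells and 15 of 15 in osteoblast-like cells. The part of these shifts in the results was not tested.

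Of the 41 genes, 28 had at least 100 UMIs over both libraries and 13 had fewer. The 13 included Mmp9 (gelatinase B, with 32 UMIs in Veh and 23 in Doxo), Mmp8 (neutrophil collagenase, 3 and 2) and Mmp12 (macrophage elastase, 10 and 2). These enzymes are known from osteoclasts, neutrophils and macrophages. Genes on the marker lists of such cells ranged from near 0 to plainly present in UMIs, and neutrophil transcripts were present as given above. On the osteoclast list, Dcstamp, a fusion gene, had 2 UMIs in each library, but Acp5, the tartrate-resistant acid phosphatase, had 353 in Veh and 165 in Doxo. Ctsk (cathepsin K) had 5387 and 2997, spread over 1400 cells in Veh and 1169 in Doxo. On the macrophage list, C1qb had 0 and 1 and Adgre1 had 1 and 2, but Cd68 had 112 and 152 and Mrc1 had 149 and 108. On the immune list, UMIs ran from 34 and 19 for Ptprc, which encodes CD45, to 395 and 291 for Fcer1g. The part of these cells in the levels was not tested. Adamts13 had 3 UMIs in Veh and 0 in Doxo, Adamts20 had 2 and 0, and Mmp21 had 3 and 0. Mmp24 had 2 and 2, Mmp27 had 3 and 4, Adamts16 had 7 and 10, Adamts17 had 14 and 6, and Adamts19 had 8 and 10. Mmp17 had 38 and 29, and Mmp28 had 47 and 31.

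Promoter sequence bears on the MMP genes that share a neighborhood. Mmp13, Mmp12, Mmp3, Mmp8 and Mmp27 lie within 309 kb on chromosome 9 (GRCm38, 7272514 to 7581885), as a cluster of 5 of the 18 MMP genes. In the 250 bases before the start site, TGANTCA, the letters bound by AP-1 (the Fos and Jun factors) and its own reverse complement, was found in 3 of the 27 members that have an entry in the RefSeq promoter table, and all 3 are in this cluster. Over all 27025 genes of the table, 7.82% held it. TGTGGT or its reverse complement, the core letters bound by RUNX factors, was found in 4 of the 27 members and in 15.9% of all genes, and only Mmp13 held both. A match describes the letters and is no evidence of binding. The windows below, of 30 bases on the plus strand of GRCm38 (RefSeq), are shown because they set Mmp13, whose levels were very uneven from cell to cell, beside its 2 neighbors. Capitals mark the AP-1 letters, which begin 35 bases before the start site in Mmp13 (chr9:7272468-7272497), 46 bases before it in Mmp3 (chr9:7445765-7445794) and 44 bases before it in Mmp12 (chr9:7347319-7347348).
Mmp13: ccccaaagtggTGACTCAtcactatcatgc
Mmp3: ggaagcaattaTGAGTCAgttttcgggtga
Mmp12: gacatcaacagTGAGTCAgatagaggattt
The RUNX letters of Mmp13 begin 118 bases before the start site (chr9:7272384-7272413) and are in capitals here.
Mmp13, RUNX window: attctgccacaaACCACActtaggaagaaa

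**Figure D1:**
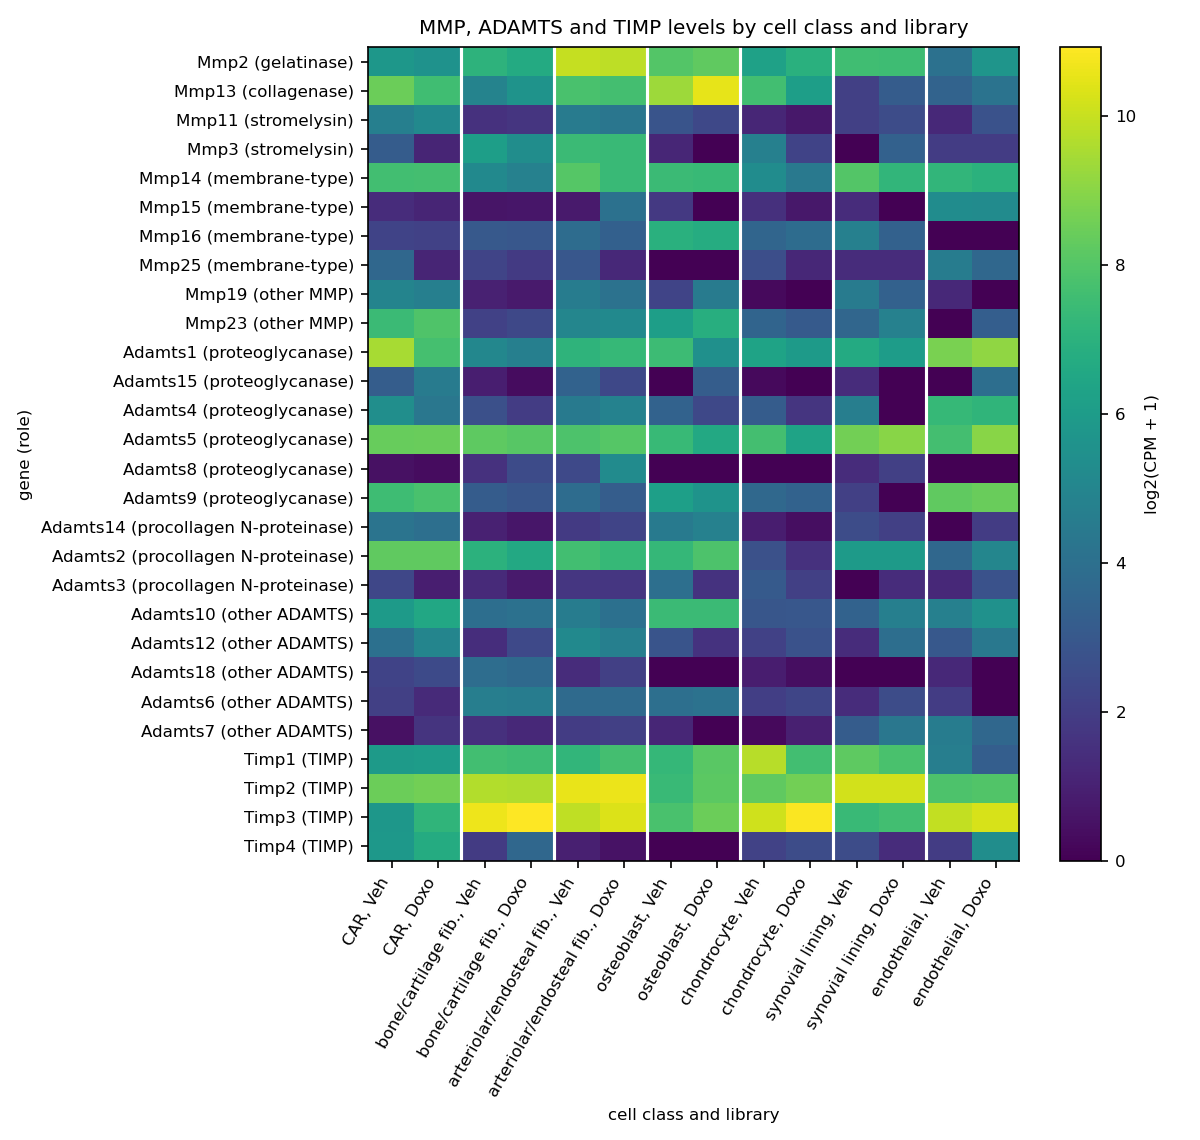
Levels of the 28 members with at least 100 UMIs, as log2(CPM + 1) in color, by gene and role (rows) and by cell class and library (columns). Mmp2 and Timp2 are brightest in arteriolar and endosteal fibroblast-like cells, Timp3 in bone and cartilage fibroblast-like and chondrocyte-like cells, and Adamts2 and Mmp23 stand out in CAR-like cells. Adamts1 is brightest in CAR-like cells of Veh and, within Doxo, in endothelial-like cells.

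The question of source was put to the 31 members with at least 20 UMIs in each library. For 20 of them the class with the highest level was the same in Veh and Doxo, and for 13 of these 20 the interval of the highest class lay above that of the next class in both libraries. For Adamts6, Adamts8, Adamts14, Mmp11, Mmp15, Mmp19 and Mmp25 these intervals overlapped in Veh, in Doxo or in both. CAR-like cells were highest for 5 (Adamts2, Mmp11, Mmp19, Mmp23 and Timp4), osteoblast-like cells for 4 (Adamts10, Adamts14, Mmp13 and Mmp16), endothelial-like cells for 4 (Adamts4, Adamts9, Mmp15 and Mmp25), arteriolar and endosteal fibroblast-like cells for 4 (Adamts8, Mmp2, Mmp3 and Timp2), and bone and cartilage fibroblast-like cells for 3 (Adamts6, Adamts18 and Timp3). Of the 20, 12 kept these classes under all 7 other ways of clustering, filtering, weighting or thinning the cells (Adamts2, Adamts4, Adamts10, Adamts18, Mmp2, Mmp3, Mmp11, Mmp15, Mmp16, Mmp23, Timp2 and Timp4). Mmp13 did so in 4 of the 7. Some members were among the genes used to form the clusters, so the levels by class are a description.

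Mmp2, gelatinase A, cuts denatured collagen. It was highest in arteriolar and endosteal fibroblast-like cells, at 996 CPM (966 to 1026) in Veh and 921 (881 to 962) in Doxo, with a UMI in 89.9% and 90.9% of the cells. Osteoblast-like cells followed at 256 (222 to 293) and 308 (261 to 362) CPM. CAR-like cells were low, at 54.3 and 46.6 CPM, and endothelial-like cells, at median depths of 6326 and 4628 UMIs, held a UMI in 8.74% and 14.5% of the cells.

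Mmp13, collagenase 3, cuts fibrillar collagen and is known from hypertrophic chondrocytes and osteoblasts. It had 3599 UMIs in Veh and 2508 in Doxo, and few cells held most of them. Cells with at least 20 Mmp13 UMIs were 42 of 2488 in Veh and 31 of 2488 in Doxo, and held 73.7% and 76.0% of the Mmp13 UMIs of their library. The single highest cell, a chondrocyte-like cell of the Veh library, held 544. In the chondrocyte-like class, the 7 Veh cells with at least 20 Mmp13 UMIs had 9728 CPM of Col10a1, the collagen of hypertrophic cartilage, against 224 CPM in the other 240. In the osteoblast-like class, the 10 such cells of each library had 21643 CPM of Ibsp, a bone matrix gene, in Veh and 8198 in Doxo, against 3330 and 3746 CPM in the others. Other osteoblast markers were lower in them. Col1a1 was at 25593 CPM in Veh and 5225 in Doxo, against 86723 and 116985 in the others. Bglap was at 41908 and 1006 CPM, against 77094 and 98323. Alpl and Dmp1 were also lower in both libraries, and Sp7 was lower in Veh and higher in Doxo. These cells were picked for Mmp13 after its values were seen, and the levels are a description.

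By class, Mmp13 was highest in osteoblast-like cells, at 634 CPM (580.0 to 691) in Veh and 1456 (1351 to 1568) in Doxo, from 24 of 208 and 17 of 125 cells. In CAR-like cells it was more widely spread, at 353 CPM (329.8 to 377) in Veh and 188 (173 to 203) in Doxo, with a UMI in 43.1% and 28.3% of the cells against 5.83% and 5.80% of endothelial-like cells. The class of the highest cells was not fixed. With 20 principal components, 1 Veh cell and no Doxo cell with at least 20 Mmp13 UMIs stayed osteoblast-like, 23 and 18 were placed with arteriolar and endosteal fibroblast-like cells, and Mmp13 was then highest there, at 396 and 403 CPM.

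Mmp3, stromelysin 1, cuts proteoglycans and activates other MMPs. It was highest in arteriolar and endosteal fibroblast-like cells, at 175 CPM (163 to 189) in Veh and 167 (151 to 186) in Doxo, from 86 of 424 and 46 of 263 cells. The 5 cells with most Mmp3 held 321 of its 744 UMIs there in Veh and 206 of 360 in Doxo. Mmp11, stromelysin 3, which is activated within the cell, was at 25.2 and 35.6 CPM in CAR-like cells and at 22.4 and 18.6 CPM in arteriolar and endosteal fibroblast-like cells.

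Mmp14, the membrane-type MMP that activates pro-Mmp2, was spread over CAR-like cells (195 CPM in Veh and 203 in Doxo), arteriolar and endosteal fibroblast-like cells (261 and 171), synovial lining-like cells (258 and 144), osteoblast-like cells (175 and 162) and endothelial-like cells (144 and 126). Its highest class differed between the libraries, and the intervals of the leading classes overlapped in both. Mmp16, another membrane-type MMP, was at 123 CPM (99.8 to 149) in osteoblast-like cells of Veh and 109 (81.6 to 142) of Doxo, and at most 25.8 CPM in any other class. Mmp15 was at 38.5 and 37.1 CPM in endothelial-like cells. Mmp25, a membrane-type MMP known from neutrophils, had 141 UMIs in Veh and 44 in Doxo.

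Mmp23, a short membrane-anchored member, was highest in CAR-like cells, at 172 CPM (156 to 189) in Veh and 241 (224 to 258) in Doxo, with a UMI in 60.2% and 72.4% of the cells. After thinning each cell to 2000 UMIs, 26.0% and 38.4% held one. Mmp19 was at 29.6 and 25.2 CPM in CAR-like cells and 22.9 and 16.3 CPM in arteriolar and endosteal fibroblast-like cells.

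Among the ADAMTS enzymes that cut proteoglycans, Adamts5, the main aggrecan-cutting enzyme of mouse cartilage, had the most UMIs of the family, 6611 UMIs in Veh and 5405 in Doxo. In Veh its level ran from 162 CPM in osteoblast-like cells to 384 in synovial lining-like cells, and in Doxo from 80.6 in chondrocyte-like cells to 509 in endothelial-like cells. Adamts1 was highest in CAR-like cells of Veh, at 718 CPM (685 to 752), and in endothelial-like cells of Doxo, at 549 (474 to 632). Adamts9 was shared by the same 2 classes: endothelial-like cells had 305 and 340.0 CPM, and CAR-like cells 185 and 218. Adamts4 was highest in endothelial-like cells, at 158 and 140.0 CPM. Adamts15 had 75 UMIs in Veh and 97 in Doxo. Adamts8 had 42 and 134 UMIs, from 12 Veh cells and 4 Doxo cells.

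The procollagen N-proteinases trim the amino end of fibrillar procollagens. Adamts2 had the highest level of the 3 in CAR-like cells, at 302 CPM (281 to 324) in Veh and 301 (282 to 319.8) in Doxo, with 197 and 159 CPM in arteriolar and endosteal fibroblast-like cells and 154 and 234 in osteoblast-like cells. Chondrocyte-like cells had 5.55 and 1.93 CPM. Adamts14 was at 17.6 and 14.8 CPM in CAR-like cells and 21.1 and 26.7 CPM in osteoblast-like cells, and Adamts3 had 86 UMIs in Veh and 30 in Doxo.

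Among the other ADAMTS genes, Adamts10, a fibrillin-binding member, was highest in osteoblast-like cells, at 174 CPM (146 to 205) in Veh and 175 (139 to 216) in Doxo. CAR-like cells had 60.7 and 92.3 CPM. Adamts6 was at 24.8 and 22.8 CPM and Adamts18 at 14.1 and 12.3 CPM in bone and cartilage fibroblast-like cells. Adamts12 was at 35.4 and 25.6 CPM in arteriolar and endosteal fibroblast-like cells and at 15.6 and 30.3 CPM in CAR-like cells, and Adamts7 had 57 UMIs in Veh and 48 in Doxo.

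The inhibitors divided between the classes. Timp1, Timp3 and Timp4 lie inside the synapsin genes Syn1, Syn3 and Syn2, each on the opposite strand, in GENCODE M21. Timp3, which binds to the matrix and also blocks ADAMTS enzymes, had the most UMIs, 28329 in Veh and 30569 in Doxo. It was highest in bone and cartilage fibroblast-like cells, at 1600.2 CPM (1577 to 1624) and 1941 (1915 to 1968), with 1117 and 1855 in chondrocyte-like, 956 and 1243 in endothelial-like, and 944 and 1315 in arteriolar and endosteal fibroblast-like cells. CAR-like cells were lowest, at 53.5 and 139.5 CPM. Timp2, which also takes part in activating pro-Mmp2, was highest in arteriolar and endosteal fibroblast-like cells, at 1511 CPM (1474 to 1549) in Veh and 1558 (1506 to 1612) in Doxo, with a UMI in 98.3% and 98.9% of the cells. It was also the main TIMP of CAR-like cells, with 67.8% of their TIMP UMIs in Veh and 55.7% in Doxo.

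Most Timp4 UMIs were in CAR-like cells, 139 of 195 in Veh and 351 of 505 in Doxo. Timp1, the inducible TIMP, was highest in chondrocyte-like cells in Veh, at 868 CPM (842 to 895), and had 195 (179.8 to 211) there in Doxo. Osteoblast-like cells were highest in Doxo, at 275 (231 to 326) against 153 (127 to 182) in Veh, from 29 of 125 and 32 of 208 cells. The Doxo interval overlapped that of synovial lining-like cells, at 218 CPM, and the highest classes of Timp1 were kept in 2 of the 7 other settings. The 10 osteoblast-like cells of each library with at least 20 Mmp13 UMIs held 93 Timp1 UMIs in Veh and 97 in Doxo, against 30 and 37 in the others.

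The balance of inhibitors and enzymes set the classes apart. In Veh, the number of TIMP UMIs per MMP or ADAMTS UMI was 0.206 (0.194 to 0.219) in CAR-like cells and 0.258 (0.232 to 0.287) in osteoblast-like cells. At the other end, the ratio was 3.19 (3.12 to 3.27) for bone and cartilage fibroblast-like cells and 3.29 (3.17 to 3.42) in chondrocyte-like cells. Enzyme transcripts thus outnumbered inhibitor transcripts in the first pair of classes and the reverse held in the second pair. Arteriolar and endosteal fibroblast-like cells had high sums of both, with 2602 CPM of TIMP, 1752 CPM of MMP and 699 CPM of ADAMTS transcripts in Veh, and a ratio of 1.06 (1.03 to 1.09). In CAR-like cells the enzymes were mainly ADAMTS, with 1697 CPM against 870 CPM of MMPs, and in osteoblast-like cells mainly MMPs, with 1281 against 811 CPM. Of the 1033 MMP UMIs of osteoblast-like cells in Veh, 463 were Mmp13 UMIs of 10 cells. In Doxo, Mmp13 of 10 cells made 677 of 1069. With 20 principal components, 1 such Veh cell and no such Doxo cell stayed in the class. The osteoblast-like ratios of both libraries count these cells and were not rerun without them. Thinned to 2000 UMIs, 88.0% of CAR-like cells of Veh had more enzyme than TIMP UMIs, and TIMP UMIs were in excess in 70.0% of the bone and cartilage fibroblast-like class.

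In Doxo the ratio was higher in 5 of the 7 classes. In CAR-like cells it was 0.344 (0.329 to 0.361), which is 0.74 log2 units above Veh (0.59 to 0.90, from the ends of both intervals). In chondrocyte-like cells it was 5.90 (5.56 to 6.27), 0.84 log2 units above Veh (0.70 to 0.98). The ratio of bone and cartilage fibroblast-like cells was 4.20 (4.09 to 4.31), 0.39 log2 units above Veh (0.32 to 0.47). Arteriolar and endosteal fibroblast-like cells had a ratio of 1.34 (1.29 to 1.39), 0.34 above Veh (0.25 to 0.43), and osteoblast-like cells 0.323 (0.290 to 0.360), 0.32 above Veh (0.01 to 0.63). In synovial lining-like cells (1.42 in Veh and 1.41 in Doxo) and endothelial-like cells (0.862 and 0.795) the intervals of the libraries overlapped. Over all bone cells the ratio was 1.70 (1.68 to 1.73) in Veh and 2.19 (2.15 to 2.22) in Doxo, and the log2 difference was 0.36 (0.32 to 0.40). CAR-like and osteoblast-like cells had the lowest ratios in both libraries, CAR-like cells below osteoblast-like cells in Veh and the reverse in Doxo, where their intervals overlapped.

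Different members carried these differences. In CAR-like cells, TIMP transcripts were 529 CPM in Veh and 693 in Doxo, ADAMTS transcripts 1697 and 1256, and MMP transcripts 870 and 757. In chondrocyte-like cells the TIMP sum was 2297 CPM in Veh and 2442 in Doxo, with Timp1 at 37.8% of the TIMP UMIs in Veh and 7.98% in Doxo, and Timp3 at 48.6% and 75.9%. The summed enzymes there were 368 CPM of MMPs and 329 of ADAMTS in Veh, and 237 and 177 in Doxo. Without the CAR-like population led by Il6 and Ccl2, described below, the log2 difference in CAR-like cells was 0.49, and in the largest CAR-like population alone it was 0.39.

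**Figure D2:**
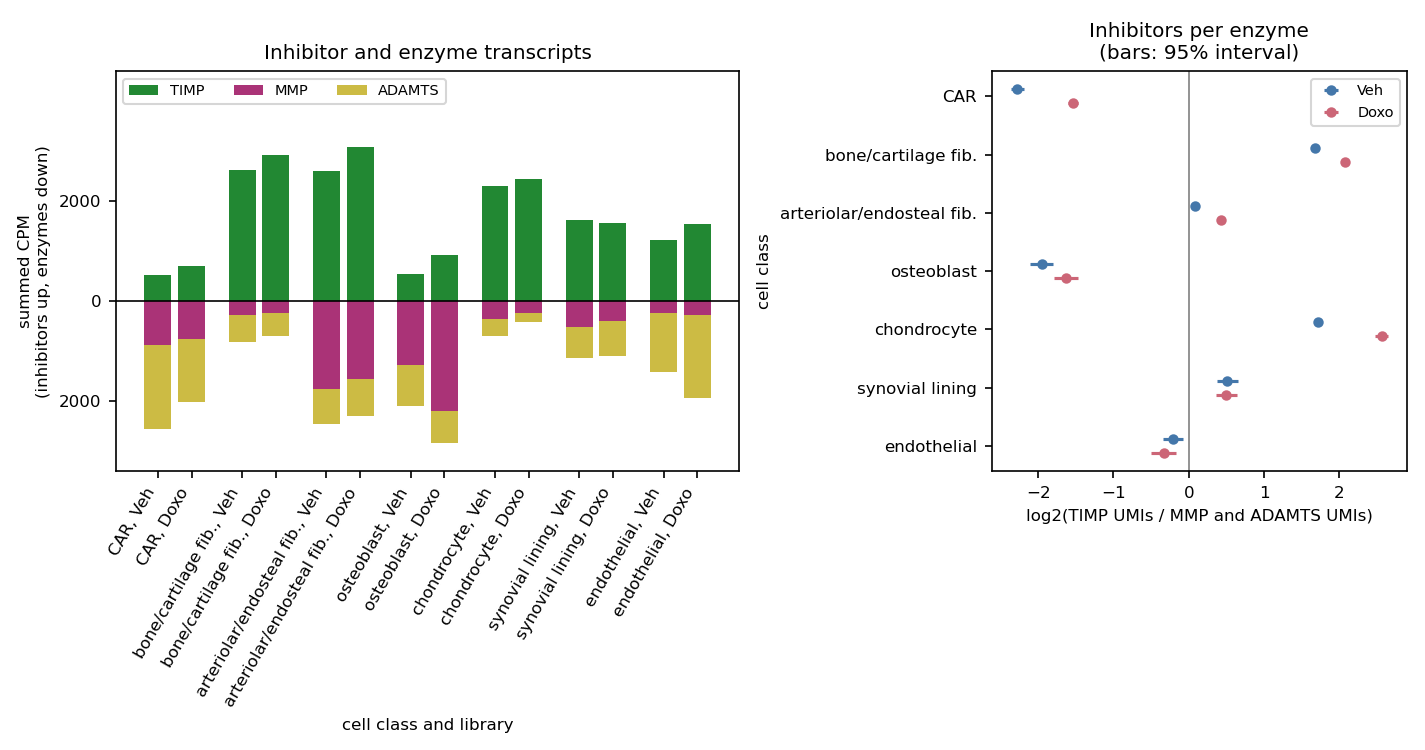
Left, summed CPM of TIMPs (upward) and of MMPs and ADAMTS enzymes (downward, stacked) by cell class and library. Right, log2 of TIMP UMIs over MMP and ADAMTS UMIs with exact 95% intervals; CAR-like and osteoblast-like cells lie left of 0 in both libraries, and the Doxo point lies right of the Veh point in 5 of the 7 classes.

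Members were then compared between Doxo and Veh within each class. A member was counted as past the fold where it had at least 20 UMIs in the class over both libraries and differed by at least 2-fold. In CAR-like cells, 2 of 25 members were higher in Doxo, beside 3.85% of all 11472 genes, and 5 were lower, beside 3.2%. For bone and cartilage fibroblast-like cells, 3 of 25 were higher, beside 1.3% of 13074 genes, and 0 lower, beside 3.39%. In chondrocyte-like cells, 0 of 20 were higher, beside 4.65% of 10827 genes, and 8 were lower, beside 5.29%. In arteriolar and endosteal fibroblast-like cells, 2 of 23 were higher, beside 1.6% of 11274 genes, and 2 were lower, beside 3.83%. In osteoblast-like cells, 1 of 15 was higher, beside 3.15% of 5595 genes, and 1 was lower, beside 7.65%. In synovial lining-like cells, 2 of 12 were higher, beside 3.85% of 6564 genes, and 2 were lower, beside 2.68%. In endothelial-like cells, 2 of 13 were higher, beside 5.16% of 6634 genes, and 1 was lower, beside 3.87%.

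The members' median log2 ratio was 0.06 in CAR-like cells, where the median of all genes was also 0.06. In bone and cartilage fibroblast-like cells it was -0.13 beside -0.09, and in chondrocyte-like cells -0.43 beside 0.05. Chondrocyte-like cells thus had the largest share of members past the fold, 8 of 20, all lower in Doxo.

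In CAR-like cells, Adamts1 was lower in Doxo, at 205 CPM (189.8 to 221) against 718 (685 to 752) in Veh, a log2 ratio of -1.81 (-1.94 to -1.68). Thinned to 2000 UMIs, an Adamts1 UMI was found in 45.4% of Veh and 22.5% of Doxo cells. Adamts4 was at 41.1 CPM in Veh and 19.3 in Doxo, and the log2 ratio was -1.09 (-1.56 to -0.63). Both enzymes cut aggrecan and versican.

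The CAR-like cells were split at the lowest resolution tried that gave at least 3 populations (0.15), so that number was set. They held 681, 87 and 27 cells, and 681, 87 and 28 with members left out of clustering. With 20 principal components the sizes were 326, 233 and 224, and without the 5% of cells with most UMIs 302, 277 and 206. Values by population are for the first split. In it, the libraries drew on the populations unequally. Population 2, led by Il6, Ccl7, Ccl2 and Cxcl1, held 82 cells in Veh and 5 in Doxo. In Veh its Adamts1 level was 1746 CPM (1650.4 to 1845) against 322 (295 to 351) in population 1, and it held 1254 of the 1798 Adamts1 UMIs of the class. Mmp13 was at 512 CPM in population 2 and 289 in population 1 of Veh, and Adamts4 at 94.7 and 19.8 CPM. In population 1, with 274 and 407 cells, Adamts1 was at 171 CPM (156 to 186) in Doxo, with a log2 ratio of -0.92 (-1.09 to -0.74). Adamts4 was there at 19.3 CPM, with a ratio of -0.05 (-0.69 to 0.63). The 5 Doxo cells of population 2 held 124 Adamts1 UMIs, at 2338 CPM, above the Veh level of that population. Without population 2, the log2 ratio of the class was -0.84 for Adamts1 and -0.15 for Adamts4, both under 2-fold. It was 1.12 for Adamts15, -3.01 for Mmp3, -2.30 for Mmp9 and 1.07 for Timp3, all past 2-fold. Timp4, under 2-fold in the whole class, had a ratio of 1.16. The part of population 2 in the class differences was not tested beyond these values.

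Timp3 was higher in CAR-like cells of Doxo, at 139.5 CPM (127 to 153) against 53.5 (44.8 to 63.4), a log2 ratio of 1.38 (1.10 to 1.67). Population 3, of 11 cells in Veh and 16 in Doxo with median depths of 14017 and 20582 UMIs, held 89 of the 134 and 371 of the 470 Timp3 UMIs. It also held Acan, the aggrecan core protein, at 145 and 515 CPM against 4.34 and 2.66 CPM in population 1. Doublets were kept, and the part of mixed droplets in this difference was not tested. In population 1, Timp3 was at 18.6 CPM in Veh and 31.2 in Doxo, and the log2 ratio was 0.73 (0.14 to 1.39). The CAR-like ratio of Timp3 also rested on deep cells: without the 5% of cells with most UMIs it was 0.13 (-0.19 to 0.46), from 137 and 183 UMIs, and in thinned cells it was 0.69 (0.05 to 1.37), both under 2-fold.

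Timp4 is the TIMP with the fewest UMIs here. In CAR-like cells it was at 55.5 CPM (46.7 to 65.6) in Veh and 104 (93.6 to 116) in Doxo, and the log2 ratio was 0.91 (0.62 to 1.20), just under the fold, and in population 1 it was 1.20 (0.84 to 1.59). A Timp4 UMI was found in 82 of 367 Veh and 167 of 428 Doxo cells of this class. In bone and cartilage fibroblast-like cells it was at 2.70 CPM (1.82 to 3.85) in Veh and 11.5 (9.55 to 13.7) in Doxo, and the log2 ratio was 2.07 (1.51 to 2.72), from 23 of 1095 and 70 of 1342 cells. Without the 5 cells of each library with most Timp4, the ratios were 1.00 and 2.19. A Timp4 UMI was found in 2.10% and 5.22% of bone and cartilage fibroblast-like cells, and free RNA from CAR-like cells as a source was not tested.

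Over the whole CAR-like class, Timp1 (log2 ratio 0.06, -0.24 to 0.37) and Timp2 (0.11, -0.02 to 0.23) had intervals that included 0. Within population 1 alone, neither interval did. Timp1 was lower there (57.6 and 40.9 CPM, -0.50, -0.90 to -0.09), and Timp2 was higher (302 and 350 CPM, 0.21, 0.06 to 0.37). The Timp1 UMIs of population 3 were 7 from Veh and 80 from Doxo, and those of population 2 were 53 and 12. Adamts15 was at 8.39 CPM in Veh and 22.6 in Doxo in CAR-like cells, from 14 and 44 cells, a ratio of 1.40 (0.71 to 2.20). Mmp25, with 29 UMIs in Veh and 4 in Doxo, had a ratio of -3.14 (-5.26 to -1.78), and the neutrophil genes S100a8, Elane and 6 others made 1650.1 and 139.5 CPM in the same cells. Population 2 held 22 of the 29 Veh UMIs of Mmp25. Without that population 7 and 4 UMIs were left, the ratio was -1.63, and its interval (-3.92 to 0.28) included 0. Mmp3 had 20 and 4 UMIs and a ratio of -2.62 (-4.76 to -1.17), with 16 of the 20 in population 3. For Mmp9, with 22 and 8 UMIs, it was -1.83 (-3.26 to -0.67), and 1 Veh cell held 14 of the 22. Mmp13 was lower by less than the fold in population 1, at 289 CPM in Veh and 185 in Doxo, with a ratio of -0.65 (-0.82 to -0.46).

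**Figure D3:**
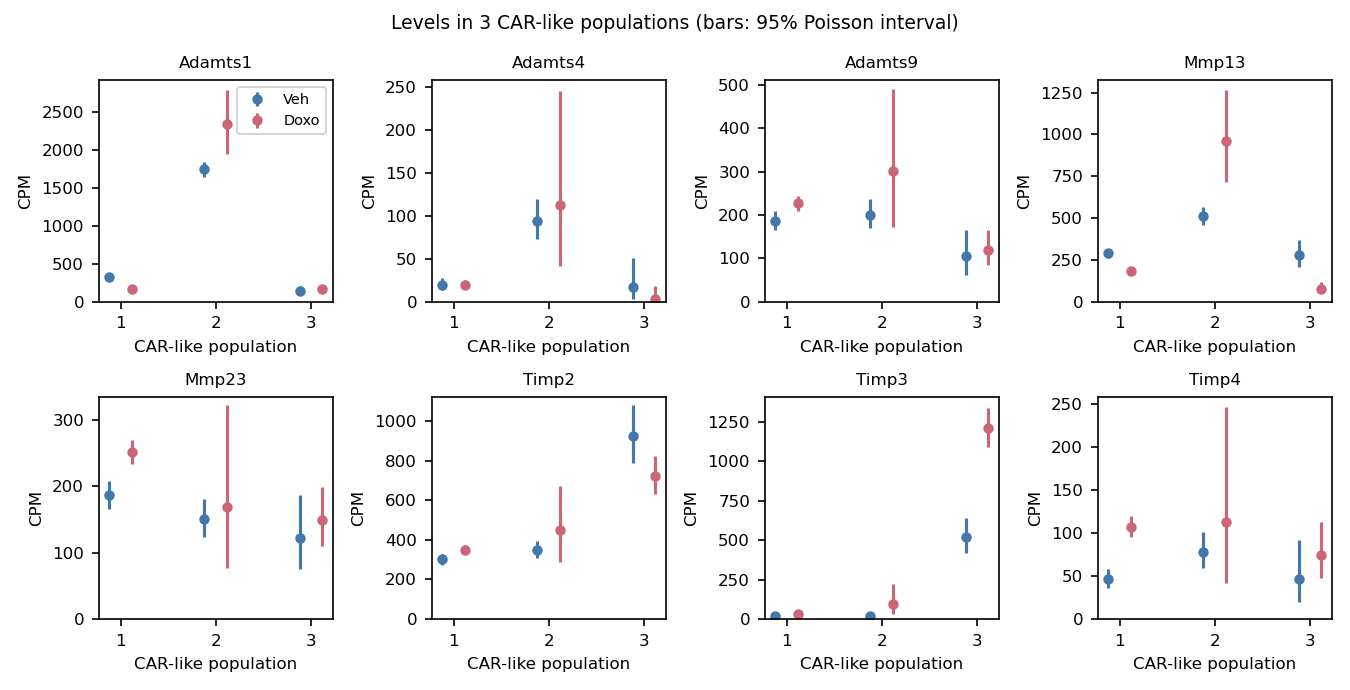
CPM of 8 members in the 3 CAR-like populations of Veh and Doxo, with 95% Poisson intervals. In Veh, Adamts1 is at 1746 CPM in population 2 against 322 in population 1, Timp3 is highest in population 3, and Timp4 is higher in Doxo than in Veh in population 1; population 2 of Doxo is 5 cells.

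In chondrocyte-like cells, Timp1 was 868 CPM in Veh and 195 in Doxo, and the log2 ratio was -2.15 (-2.28 to -2.03), the largest of any TIMP and class with at least 20 UMIs. Many cells carried it: 195 of 247 Veh cells held a Timp1 UMI and 112 of 206 Doxo cells, or 49.8% and 25.9% after thinning. Without the 5 cells with most Timp1 in each library the ratio was -2.22. Timp3 was higher in the same cells, at 1117 CPM in Veh and 1855 in Doxo (0.73, 0.68 to 0.78), and after thinning 59.8% and 83.6% held a UMI. Timp2 was at 308 and 388 CPM (0.33, 0.22 to 0.44).

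The enzymes lower in chondrocyte-like cells of Doxo included Adamts5, at 201 CPM (189 to 214) in Veh and 80.6 (70.9 to 91.2) in Doxo, and the log2 ratio was -1.32 (-1.53 to -1.12). It was found in 131 of 247 and 69 of 206 cells, and without the 5 highest cells of each library the ratio was -1.55. Mmp13, at 195 and 68.7 CPM, had a ratio of -1.51 (-1.73 to -1.29), but 5 Veh cells held 829 of 949 UMIs and 1 Doxo cell 195 of 213. Mmp3, with 125 and 11 UMIs, had a ratio of -2.80 (-3.90 to -1.97), and 1 Veh cell held 73 of them. Adamts2 (27 and 6 UMIs), Adamts3 (37 and 10), Adamts4 (39 and 7) and Mmp25 (25 and 4) had ratios between -1.85 and -1.19, each with an interval below 0.

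Other measures moved with these. The 8 chondrocyte markers summed to 37613 CPM in Veh and 26259 in Doxo, with 6 of 8 lower, and the 8 osteoblast markers in these cells to 11489.5 and 4045, with 7 of 8 lower. Col1a1 was at 1113 CPM in Veh and 119 in Doxo in chondrocyte-like cells. The genes of the dissociation response were higher in Doxo, at 15892 and 31809 CPM. A list of 10 inflammatory genes summed to 728 CPM in Veh and 391 in Doxo, with 6 of the 7 tested lower and 1 higher. The part of these lists in the lower Timp1 and enzyme levels was not tested. Fewer cells of one kind within the class and less RNA per cell cannot be told apart in summed UMIs.

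**Figure D4:**
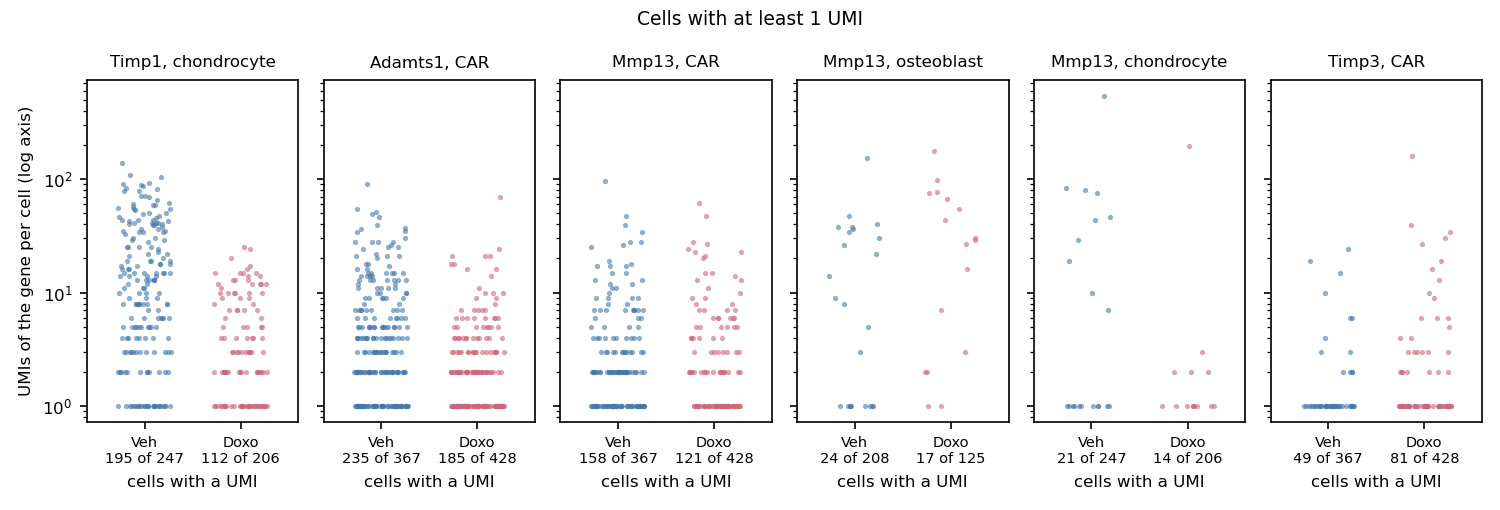
UMIs per cell, on a log axis, in the cells that held at least 1 UMI, for 6 pairs of gene and class in Veh and Doxo; the count of such cells and of all cells is under each column. Timp1 in chondrocyte-like cells differs across many cells, whereas the Mmp13 UMIs of osteoblast-like and chondrocyte-like cells come from few.

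In the remaining classes, single cells decided several ratios. Adamts8, a proteoglycan-cutting enzyme, had a log2 ratio of 3.14 (2.42 to 3.99) in arteriolar and endosteal fibroblast-like cells, with 18 UMIs in Veh and 82 in Doxo, and all 82 were in 1 cell of 19303 UMIs. The same cell held 33 of the 34 Mmp15 UMIs of that class in Doxo, against 3 in Veh. In bone and cartilage fibroblast-like cells the 49 Adamts8 UMIs of Doxo were also in 1 cell, and without the 5 highest cells 1 UMI was left in Veh and 0 in Doxo. Adamts12 in the latter class was spread over 17 cells in Veh and 34 in Doxo, at 1.71 and 4.30 CPM (1.31, 0.53 to 2.18).

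In osteoblast-like cells, Mmp13 had a log2 ratio of 1.20 (1.03 to 1.37) and Adamts1 one of -2.01 (-2.78 to -1.37), at 177 CPM in Veh and 43.1 in Doxo. All 8 CAR markers were lower in Doxo in the same cells, with a sum of 702 and 304 CPM, and their part in the Adamts1 ratio was not tested. The Mmp13 ratio depended on which cells were called osteoblast-like. With 20 principal components it was -1.02, and among cells with no fewer than 1000 genes and no more than 5% mitochondrial UMIs there were 30 UMIs in Veh and 0 in Doxo, for which the fitted ratio of -4.81 depends on the 0.5 UMI added and is no bound. Without the 5 highest cells it was 0.91. In arteriolar and endosteal fibroblast-like cells, Timp3 was 944 CPM in Veh and 1315 in Doxo (0.48, 0.41 to 0.55), Mmp25 had 29 and 3 UMIs (-2.10, -4.65 to -0.60), and Adamts15 had 42 and 9 (-1.18, -2.47 to -0.18). The TIMPs of osteoblast-like cells had ratios of 0.85 (Timp1), 0.80 (Timp2) and 0.68 (Timp3), from 32 and 29, 51 and 36, and 24 and 18 cells. Without the 5 highest cells of each library these were 0.61, 0.27 and -0.33. Among bone and cartilage fibroblast-like cells the ratio of Timp3 was 0.28 (0.25 to 0.31), that of Timp1 -0.09 and that of Timp2 -0.04.

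In endothelial-like cells, Adamts5 was at 199.7 CPM (168 to 236) in Veh and 509 (437 to 589) in Doxo, and the log2 ratio was 1.35 (1.02 to 1.68), from 36 of 103 and 24 of 69 cells. After thinning, 17.7% and 29.5% of these cells held a UMI. Mmp2 had 11 and 18 UMIs there (1.69, 0.55 to 2.94), and Timp1 had 17 and 3 (-1.32, -3.91 to 0.29). In the same cells the summed CAR markers were at 826 CPM in Veh and 2577 in Doxo, with 7 of 8 higher, and those of bone and cartilage fibroblasts at 979 and 2143, with 7 of 8 higher, while the endothelial markers were at 5196 and 4977. The part of these other transcripts in the ratios of Adamts5 and Mmp2 was not tested. The 4 members past the fold in synovial lining-like cells (Adamts10, Mmp16, Mmp19 and Mmp23) had 20 to 24 UMIs each over both libraries, and the intervals of 3 of them included 0.

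**Figure D5:**
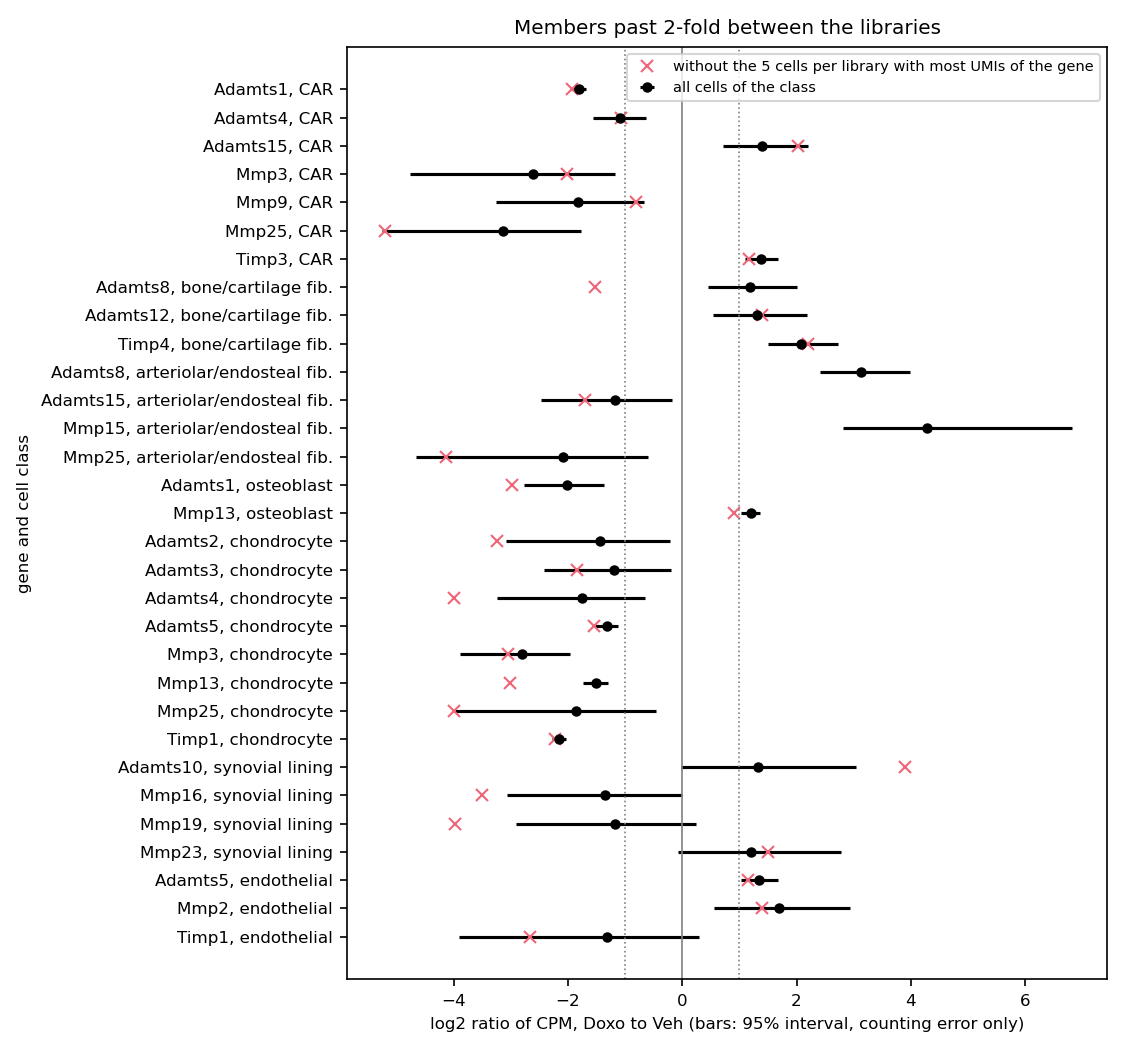
Log2 ratio of Doxo to Veh for every member and class past 2-fold, with 95% intervals for counting error (black). Red crosses give the ratio without the 5 cells per library with most UMIs of the gene; the 2 pairs with no cross had no UMI left, and Adamts8 in bone and cartilage fibroblast-like cells changes side.

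Genes linked to these enzymes were counted by the same rule, from a list of 40 genes of which all 40 were in the tables: activators, other inhibitors, clearance receptors, ADAM and procollagen enzymes, ADAMTS-like proteins, cathepsins and substrates. In CAR-like cells 5 of 34 tested were higher in Doxo and 0 lower, beside 3.85% and 3.2% of all genes tested. The counts were 0 and 4 of 37 in bone and cartilage fibroblast-like cells (1.3% and 3.39% of all genes), 0 and 2 of 36 in arteriolar and endosteal fibroblast-like cells (1.6% and 3.83%), 0 and 3 of 24 in osteoblast-like cells (3.15% and 7.65%) and 0 and 8 of 30 in chondrocyte-like cells (4.65% and 5.29%). They were 3 and 6 of 31 in synovial lining-like cells (3.85% and 2.68%) and 4 and 2 of 29 in endothelial-like cells (5.16% and 3.87%). Plau, the urokinase that makes plasmin, a broad MMP activator, was lower in 4 classes: it was at 26.8 CPM in Veh and 9.06 in Doxo in bone and cartilage fibroblast-like cells (-1.56, -1.91 to -1.23) and had 44 UMIs in Veh and 1 in Doxo in chondrocyte-like cells. Plaur, its receptor, was at 128 and 38.7 CPM in chondrocyte-like cells (-1.72, -2.02 to -1.44). Among substrates, Col3a1 was at 1419 and 567 CPM in bone and cartilage fibroblast-like cells (-1.32, -1.37 to -1.28), and in CAR-like cells Vcan (versican) was at 37.1 and 77.8 CPM (1.06, 0.72 to 1.42) and Acan at 13.6 and 49.6 CPM, with 158 of the 167 Acan UMIs of Doxo in population 3.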

How the data were processed

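Bones of 1 Veh and 1 Doxo library were profiled with droplet 3′ single-cell RNA sequencing. Per the labels and the study's methods, the authors aligned reads with Cell Ranger to GRCm38 (mm10) and also used Partek; versions and the annotation release are not given in the sources used here. The deposited tables hold log2 values that the authors had scaled per cell, on top of an earlier log scaling. Both rounds were inverted, and 99.9% of the recovered values lay within 0.1 of a whole number of UMIs.

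Cells with 200 to 10000 genes and at most 10% mitochondrial UMIs were clustered with Seurat 5.3.0 in R 4.3.3 (2000 variable genes, 35 principal components, resolution 0.1), without batch correction, and named by marker genes. All 2488 cells of each deposited table passed, with at least 555 genes in Veh and 570 in Doxo, so these limits removed no cell. Counts of cells by class thus rest on tables of equal size. Doublets were kept. UMIs were summed by class and library in Python 3.11.15, with 0.5 UMI added in ratios. The members, marker lists and linked genes were chosen with earlier results of these data known. Members with at least 100 UMIs were described singly, and between libraries those past 2-fold and all TIMPs were named. Shares of cells were also taken after thinning cells to 2000 UMIs, leaving out shallower cells. Leaving out the 5 cells with most UMIs of a gene, and the largest CAR-like population alone, were alternatives chosen after seeing the data. Promoter sequence came from RefSeq, and 14 members had no entry.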

Additional observations from a re-analysis of the deposited data

Results flagged for a closer look

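For 3 genes the difference between the libraries had opposite directions in 2 classes, each with an interval for counting error that did not include 0. The difference between the classes was not tested, since each condition has 1 library. Adamts15 had a log2 ratio of Doxo to Veh of 1.40 in CAR-like cells and -1.18 in arteriolar and endosteal fibroblast-like cells. Adamts5 had a ratio of -1.32 in chondrocyte-like cells and 1.35 in endothelial-like cells, where the summed CAR markers were at 826 CPM in Veh and 2577 in Doxo (7 of 8 higher), whose part was not tested. Mmp13 had a ratio of 1.20 in osteoblast-like cells and -1.51 in chondrocyte-like cells, where few cells held most of its UMIs.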

How the results depend on the processing

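The log2 difference of TIMP UMIs per enzyme UMI was above 0 in the settings run for all bone cells, CAR-like and bone and cartilage fibroblast-like cells; other classes were not rerun. Over all bone cells (0.36) it was 0.43 under a stricter cell filter (no fewer than 1000 genes, no more than 5% mitochondrial UMIs), 0.51 with thinned cells, 0.53 with every cell weighing the same and 0.44 without the 5% of cells with most UMIs. In bone and cartilage fibroblast-like cells (0.39) these settings gave 0.31, 0.52, 0.57 and 0.48. In CAR-like cells (0.74) it was 0.53 without the 5% deepest cells, 0.49 without the population led by Il6 and Ccl2, and 0.39 in the largest population alone. Members past the fold in CAR-like cells numbered 7, but 4 with thinned cells, 4 with at least 50 UMIs, 15 with no minimum, 11 with a fold of 1.5 and 3 in the largest population alone. In bone and cartilage fibroblast-like cells the count of 3 became 10 with no minimum and 7 with a fold of 1.5. Mmp13 in osteoblast-like cells turned to -4.81 with the stricter cell filter, against 0 Doxo UMIs, and -1.02 with 20 principal components, where the class held other cells. Adamts8 and Mmp15 in arteriolar and endosteal fibroblast-like cells turned to -3.32 (10 Veh and 0 Doxo UMIs) and -0.15 (3 and 1) without the 5% deepest cells, and Adamts8 in bone and cartilage fibroblast-like cells to -1.53 without its 5 highest cells (1 and 0). These 3 values depend on the 0.5 UMI added and are no bounds. No paired analysis was possible because each condition has 1 library. Depth limits members under 20 UMIs in a class, for which no difference could be read.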
